A study of Mus musculus with 6 samples.

Results

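The thyroid hormone signalling genes described here are Thra, Thrb, Dio2, Dio3, Klf9 and Hr, 6 of the 24411 gene symbols counted in cochlear tissue from Kir2.1-OE mice and their littermate controls. They were taken by symbol, and the list was chosen with earlier results of these data known. All 6 were found in every library, and 5 of them were among the 15303 genes with enough reads to be tested, since Dio3 did not pass that filter. Kir2.1-OE mice carried Otof rtTA+/- together with Kir2.1 +/-, so that doxycycline (DOX) switched on a transgene for the inwardly rectifying K+ channel Kir2.1, and controls carried Otof rtTA+/- with Kir2.1 +/+, named WT in the labels. Both genotypes were on the C57BL/6N background and were taken at P9, before the onset of hearing. For both, DOX was in the drinking water of the pregnant and nursing mothers, at 0.5 mg/ml, from conception on. The Otof promoter drives rtTA in the hair cells, mainly in the inner hair cells (IHCs), whereas RNA came from the dissected sensory epithelium with its other cells. Each group had 3 libraries, and each library was 1 pool of 8 cochleae from 4 mice, so the pool is the replicate and p-values measure the spread between pools.

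Thyroid hormone reaches the cochlea mostly as thyroxine (T4), which type 2 deiodinase, the product of Dio2, converts to the active hormone T3, and which type 3 deiodinase, the product of Dio3, inactivates together with T3. T3 binds the nuclear receptors made from Thra and Thrb, which sit on DNA beside a retinoid X receptor and hold corepressors without hormone and coactivators with it. Klf9, a Krüppel-like transcription factor, and Hr, the hairless histone demethylase and corepressor, are transcribed directly in response to T3 in many tissues. In the rodent cochlea the hormone times the maturation of the sensory epithelium and the onset of hearing, and loss of Thrb or Dio2 impairs hearing in mice.

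In Kir2.1-OE cochleae Thrb, Klf9 and Hr were higher than in controls. Hr differed by the most without correction for transcript length and GC content, and Klf9 with both corrections. Thra and Dio2 did not pass the test, and Dio3 was near the limit of detection. A gene was called when its adjusted p-value in the quasi-likelihood test of edgeR, with Benjamini-Hochberg adjustment over all genes tested, was under 0.05 and its fold change was above 1.5. By this rule 3 of the 5 genes tested were called higher and 0 lower. Over all genes tested, 15.5% were called higher and 5.08% lower. The groups did not overlap for the same 3 genes, beside 61.6% of all genes tested. The 5 genes had a median log2 fold change of 0.62, against 0.01 for all genes tested. Log2 fold changes rose with the length of the transcript across all genes in these libraries, and offsets that remove the trend with length and GC content brought the median of the 5 genes to 0.31 and left 0 of them called higher or lower, beside 6.81% of all genes called higher and 3% called lower with the same offsets. The 5 genes are therefore given with and without these offsets.

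The promoter windows of Thrb and Klf9, which were both called higher, are shown beside that of Dio2, which was not called. The sequences run from 250 bases before to 50 bases after the RefSeq start in GRCm38.p6, a release of the mm10 assembly. Windows were found for 4 of the 6 genes (Thrb, Dio2, Dio3 and Klf9). Capitals mark AGGTCA, the half-site that nuclear receptors such as the thyroid hormone receptors bind, or TGACGTCA, the cAMP response element, on either strand. Thrb lies at chr14:17660710-17661009 on the plus strand, Klf9 at chr19:23140976-23141275 on the plus strand and Dio2 at chr12:90738989-90739288 on the minus strand.
Thrb: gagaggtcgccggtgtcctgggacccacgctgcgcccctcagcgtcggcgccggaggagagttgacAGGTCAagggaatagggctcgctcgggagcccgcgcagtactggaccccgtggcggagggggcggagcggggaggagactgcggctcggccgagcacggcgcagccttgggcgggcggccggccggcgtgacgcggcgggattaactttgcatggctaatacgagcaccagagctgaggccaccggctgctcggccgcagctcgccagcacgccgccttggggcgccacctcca
Klf9: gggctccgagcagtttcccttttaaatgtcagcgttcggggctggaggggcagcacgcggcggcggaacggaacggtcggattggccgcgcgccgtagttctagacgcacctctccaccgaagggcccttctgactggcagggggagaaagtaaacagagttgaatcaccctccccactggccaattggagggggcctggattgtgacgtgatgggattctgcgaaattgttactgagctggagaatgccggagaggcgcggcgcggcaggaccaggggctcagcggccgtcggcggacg
Dio2: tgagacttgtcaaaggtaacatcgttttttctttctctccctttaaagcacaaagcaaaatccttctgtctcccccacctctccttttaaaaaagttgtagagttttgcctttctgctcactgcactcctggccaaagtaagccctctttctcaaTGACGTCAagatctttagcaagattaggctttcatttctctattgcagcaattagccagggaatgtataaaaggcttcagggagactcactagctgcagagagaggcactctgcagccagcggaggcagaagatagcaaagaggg
The Thrb window shown held AGGTCA at position -184 from its start, another Thrb start (chr14:17981394-17981693, not shown) held neither motif, and 16.3% of the 32851 mouse windows of this kind held AGGTCA. The Dio2 window held TGACGTCA at position -95, a match found in 1.79% of all windows. The Klf9 window held neither, and a direct repeat of the half-site with 4 bases between its copies was in none of the 5 windows of these genes and in 0.0152% of all windows.

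The overexpressed channel gene served as a check of the labels. Kcnj2, the gene of Kir2.1, had 3213 ± 872 normalized counts in Kir2.1-OE libraries and 230 ± 5.16 in controls (mean ± SD, n = 3), with a log2 fold change of 3.80, and no library went against its label. Normalized counts are expected counts scaled to 1 common library size. Between 35430940 and 41205047 reads were assigned per library, and a gene with no read could hold up to 8.47e-06% of the reads of the shallowest library (3 counts, counting error only). In all, 2365 genes were called higher and 778 lower, 75.2% of the calls being higher; with upper quartile scaling these were 1897 and 1378, 57.9% being higher. Control replicate 1 stood apart in bone and blood genes: Ibsp and Bglap, genes of bone matrix, were at their lowest there and Hba-a1, a haemoglobin gene, was at its highest.

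Marker genes of several cell types differed in their summed counts between the groups, where 15.5% of all genes tested were called higher and 5.08% lower. Markers of spiral ganglion neurons summed to 19292 to 49600 normalized counts in Kir2.1-OE libraries and 8587 to 14419 in controls, with 4 of 6 called higher, and those of cartilage and bone to 648099 to 780236 and 290273 to 404172, with 3 of 5 higher. Sums were also above the range of controls for IHC markers (9930 to 11948 against 7445 to 8287, 2 of 4 higher), shared hair cell markers (2 of 5 higher), glia (1 of 5), fibrocytes and mesenchyme (3 of 6), stria (0 of 3), macrophages (0 of 4) and vessels (2 of 3). They were below that range for melanocytes (2 of 3 tested lower), erythrocytes (2 of 3 lower) and the greater epithelial ridge with interdental cells (2 of 4 higher, Tecta not called). Sums of outer hair cell markers (2 of 3 higher) and supporting cell markers (1 of 6 higher) overlapped. A sum follows the most counted genes of its list. Among shared hair cell markers this was Calb2, highest in Kir2.1-OE replicate 3 (23168), whereas Pou4f3 (log2 fold change 0.05), Pvalb (-0.02) and Gfi1 (-0.25) were not called. Epyc, at 128620 against 162550, made up most of the greater epithelial ridge sum, while Otoa (0.89) and Ceacam16 (2.60) were called higher. With the length and GC offsets the calls were 0 of 4 for IHC markers, 1 of 5 for shared hair cell markers, 1 of 3 for outer hair cell markers, 1 of 5 for cartilage and bone, 2 of 6 for fibrocytes and mesenchyme, 2 of 5 for glia and 0 of 3 for erythrocytes. The greater epithelial ridge list then had 1 lower beside its 2 higher, and the other lists had as many calls as before. The hair cell and supporting cell markers were detected in every library, whereas Mlana of the melanocyte list and Hbb-bs of the erythrocyte list were at 0 in some. In bulk tissue fewer cells of a type and less RNA per cell cannot be told apart, and the part of these differences in the results below was not tested.

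Thra encodes the receptor TRα and its splice form that does not bind T3, and it is the more widespread of the receptor genes. Thra lies on chromosome 11 (98740638 to 98769006, plus strand, GRCm38), and its longest annotated transcript has 2452 nt in 10 exons. Normalized counts were 3780, 4042 and 3911 in Kir2.1-OE pools 1, 2 and 3 and 4603, 3942 and 4048 in control pools 1, 2 and 3. Control replicate 1 was the highest of the 6, and the other 5 lay close together, so the groups overlapped. The log2 fold change was -0.10 (SE 0.0776, 95% interval -0.28 to 0.07), and the adjusted p in edgeR's quasi-likelihood test was 0.299. Offsets for length and GC content moved it to -0.19 (adjusted p = 0.0996).

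Thra shares 263 of its 4614 exonic bases with Nr1d1, a gene of the circadian clock that lies opposite to it. Nr1d1 had 2332, 2340 and 1971 normalized counts in Kir2.1-OE pools 1, 2 and 3 and 1326, 1495 and 1766 in control pools 1, 2 and 3. All 3 Kir2.1-OE libraries were above the controls, with a log2 fold change of 0.53 (adjusted p = 0.00371 in edgeR's quasi-likelihood test) that was under 1.5-fold. It was above 1.5-fold and called with length offsets alone (0.62), with control replicate 3 left out (0.65) and with Kir2.1-OE replicate 3 left out (0.60). Since no strand setting is given in the sources used here, reads of the shared bases cannot be assigned to either gene with certainty.

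Thrb encodes TRβ, the receptor that hearing depends on. It spans chromosome 14 from 17660261 to 18038090 on the plus strand, and its longest annotated transcript has 6200 nt. Normalized counts were 3768, 3428 and 3174 in Kir2.1-OE pools 1, 2 and 3 and 2136, 2357 and 2271 in control pools 1, 2 and 3. Every Kir2.1-OE library was above every control, replicate 1 being the highest. The means were 3456 ± 298 and 2255 ± 111 (SD, n = 3), a log2 fold change of 0.62 (SE 0.0808, 95% interval 0.43 to 0.80, adjusted p = 3.81e-04 in edgeR's quasi-likelihood test). The value is close to the 1.5-fold limit, and without Kir2.1-OE replicate 1 it was 0.54 and without control replicate 1 it was 0.58, both under it. It was also under it with upper quartile scaling (0.53), and DESeq2's test against a log2 fold change of 0.6 did not call it.

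The size of the Thrb difference changed with the offsets. With those for length and GC content the log2 fold change was 0.33 (adjusted p = 0.00863, edgeR's quasi-likelihood test), with those for length alone 0.19 (adjusted p = 0.0466) and with those for GC content alone 0.63. It remained positive with an adjusted p under 0.05 in each, but under 1.5-fold in both fits that include length.

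The ratio of Thrb to Thra counts needs no scaling between libraries. It was 0.997, 0.848 and 0.811 in Kir2.1-OE pools 1, 2 and 3 and 0.464, 0.598 and 0.561 in control pools 1, 2 and 3. Each Kir2.1-OE library thus had more Thrb reads for each Thra read than any control, with a difference of 0.71 on the log2 scale (two-sided exact permutation test, p = 0.1, the smallest p that 3 libraries against 3 allow). Thrb has the longer transcript, so that this ratio carries the trend with length. Per kilobase, Thra was the higher of the pair in every library, at 42.5 ± 1.42 CPM (counts scaled to a common library total) per kb against 14.9 ± 1.28 for Thrb in Kir2.1-OE and 45.6 ± 3.86 against 9.69 ± 0.479 in controls.

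**Figure D1:**
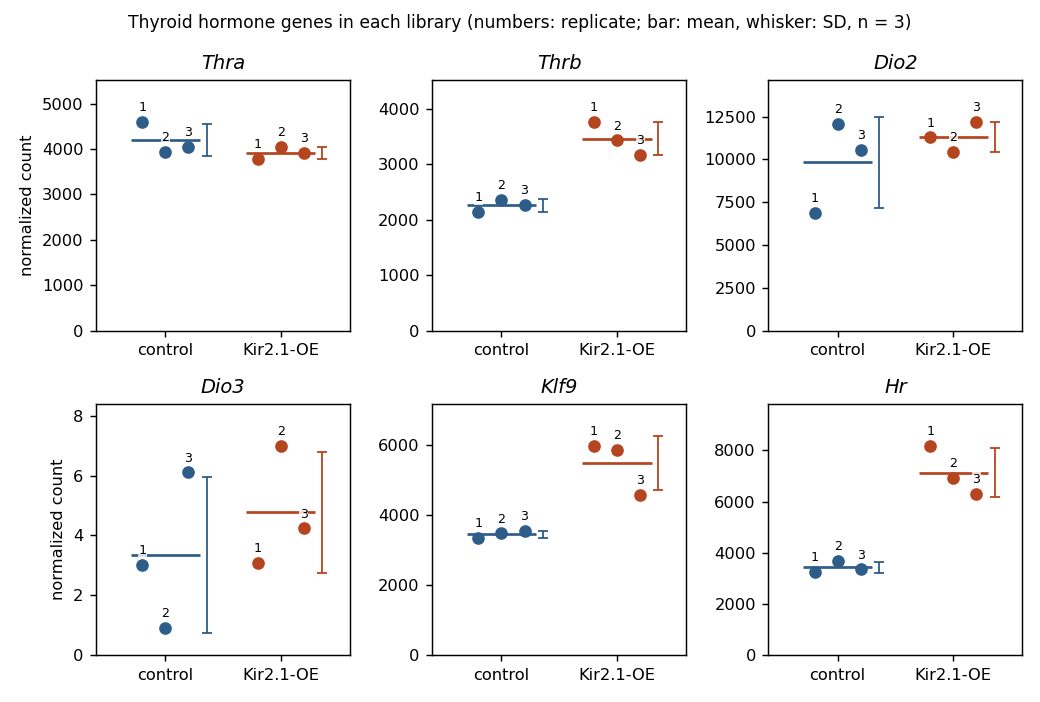
Normalized counts (vertical axes, each from 0) of the 6 thyroid hormone genes in the control and Kir2.1-OE libraries; points are libraries numbered by replicate, bars are means and whiskers are SD (n = 3). The groups are separate for Thrb, Klf9 and Hr and overlap for Thra, Dio2 and Dio3, and the Dio2 point of control replicate 1, at 6883, lies apart from the other 5.

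Dio2 encodes the deiodinase that makes T3 within the tissue. It lies on chromosome 12 (90724552 to 90738438, minus strand), with a single annotated transcript of 5815 nt in 2 exons, 100 bases of which lie opposite to another annotated gene, Gm26512. Normalized counts were 11282, 10461 and 12214 in Kir2.1-OE pools 1, 2 and 3 and 6883, 12068 and 10557 in control pools 1, 2 and 3. The other 5 libraries lay in 1 narrow range, well above control replicate 1. The log2 fold change was 0.20 (SE 0.173, 95% interval -0.19 to 0.59), with an adjusted p of 0.356 in edgeR's quasi-likelihood test, an interval that takes in both 0 and a rise of 1.5-fold. Without control replicate 1 the log2 fold change was -0.0003, and offsets for length and GC content took it to -0.01.

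The library with the low Dio2 level also had the lowest levels of bone matrix genes. Ibsp, which encodes bone sialoprotein, had 26529 normalized counts in control replicate 1, 71540 and 98515 in control replicates 2 and 3, and 91280, 100690 and 103170 in Kir2.1-OE pools 1, 2 and 3. Bglap, the osteocalcin gene, had 2522 in control replicate 1, 9091 and 17352 in the other controls, and 14355, 16102 and 15691 in the Kir2.1-OE libraries. Among all genes, those whose pattern over the 6 libraries was most like that of Dio2 were Lppr4, Dlx5 and Mef2c, with root mean square differences of centred log2 CPM of 0.0676, 0.0732 and 0.0798. How far the amount of bone in a pool sets its Dio2 level was not tested.

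**Figure D2:**
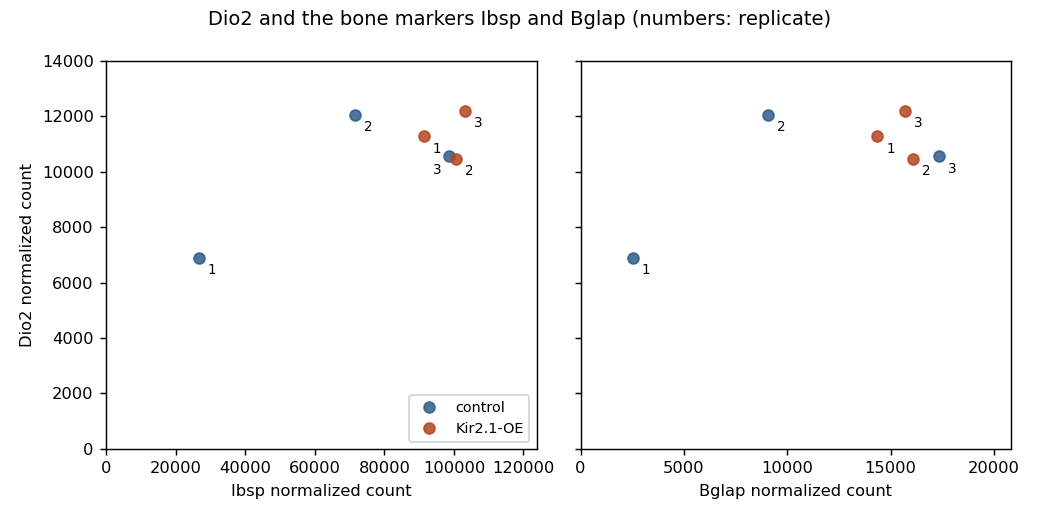
Normalized counts of Dio2 (vertical axis) against those of the bone matrix genes Ibsp (left) and Bglap (right) in each library, numbered by replicate. Control replicate 1 is lowest in all 3 genes, and the other 5 libraries lie between 10461 and 12214 for Dio2 in both groups.

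Dio3 encodes the deiodinase that inactivates T4 and T3, and it lies at the end of the imprinted Dlk1-Dio3 domain on chromosome 12 (110279068 to 110281097, plus strand, 2030 nt). It had 3, 7 and 4 reads in Kir2.1-OE pools 1, 2 and 3 and 3, 1 and 6 reads in control pools 1, 2 and 3, 24 reads in all. The groups overlapped, and the counts were too low for the filter of the test. Without the filter the log2 fold change was 0.53 with an SE of 0.828 (adjusted p = 0.647 in edgeR's quasi-likelihood test), and a difference was not detectable at this depth. Dio1, the deiodinase gene of liver and kidney, had 22 reads over the 6 libraries, and Dio3os, transcribed opposite to Dio3, had 9. Dio2 thus supplied nearly all deiodinase reads at P9.

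The other genes of the Dlk1-Dio3 domain were not uniform. Of 4 tested, Meg3, a long noncoding RNA of the maternal allele, was called higher, at 518, 290 and 653 normalized counts in Kir2.1-OE pools 1, 2 and 3 and 92.3, 139.9 and 42.8 in control pools 1, 2 and 3. Its log2 fold change was 2.40 (adjusted p = 0.0011, edgeR's quasi-likelihood test) and, with the offsets, 1.45, called both times, and the call was lost with the replicate block added to the offsets (1.43, adjusted p = 0.0639). Meg3 was highest in Kir2.1-OE replicate 3 and lowest of that group in replicate 2, the same order as the summed markers of spiral ganglion neurons (31759, 19292 and 49600 in replicates 1, 2 and 3), whose part in the Meg3 level was not tested. Begain was called higher (0.71), and its call was lost with the offsets (0.34), with GC offsets alone (0.54) and without Kir2.1-OE replicate 2 (0.65) or 3 (0.61), while Rian (0.34) and Dlk1 (-0.15) were not called. Rtl1, Mirg and Dio3os had too few reads to be tested. Thus 2 of the 4 tested were called higher and 0 lower, beside 15.5% and 5.08% of all genes tested.

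Klf9 encodes a transcription factor that is induced by T3 and by glucocorticoids. It lies on chromosome 19 (23141226 to 23168134, plus strand), and its longest annotated transcript has 4486 nt in 2 exons. Normalized counts were 5982, 5878 and 4589 in Kir2.1-OE pools 1, 2 and 3 and 3351, 3475 and 3550 in control pools 1, 2 and 3. The controls lay within a narrow range, all Kir2.1-OE libraries were above it, and Kir2.1-OE replicate 3 was the nearest to it. The means were 5483 ± 776 and 3459 ± 101 (SD, n = 3), a log2 fold change of 0.66 (SE 0.102, 95% interval 0.44 to 0.89, adjusted p = 7.65e-04 in edgeR's quasi-likelihood test). It stayed called when any 1 library was left out (0.59 to 0.76), whereas upper quartile scaling took it to 0.58 and DESeq2's test against a log2 fold change of 0.6 did not call it.

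Among Thrb, Klf9 and Hr, Klf9 had the shortest transcript and changed least with the offsets. Its log2 fold change was 0.52 with the length and GC offsets (adjusted p = 0.00480, edgeR's quasi-likelihood test), 0.50 with length alone and 0.63 with GC content alone, the 2 values with length falling just under 1.5-fold. Its relatives were mixed: Klf13 was called higher at 0.89 and had 0.20 with the offsets, while Klf10 (-0.0018), Klf11 (0.0077) and Klf16 (-0.13) were not called and Klf14 had too few reads.

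Hr encodes a histone demethylase that acts as a corepressor of nuclear receptors, and without offsets it had the largest difference between the groups of the 6 genes. It lies on chromosome 14 (70552212 to 70573548, plus strand), and its longest annotated transcript has 5607 nt in 19 exons with a GC content of 61.6%. Normalized counts were 8181, 6918 and 6305 in Kir2.1-OE pools 1, 2 and 3 and 3241, 3683 and 3348 in control pools 1, 2 and 3. The lowest Kir2.1-OE library was thus well above the highest control. The means were 7135 ± 956 and 3424 ± 231 (SD, n = 3), a log2 fold change of 1.06 (SE 0.103, 95% interval 0.83 to 1.29, adjusted p = 1.51e-04 in edgeR's quasi-likelihood test).

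Hr stayed called with length offsets alone (0.72) and with GC offsets alone (0.89), and when any 1 library was left out (0.94 to 1.13). Both offsets together gave 0.31 (adjusted p = 0.0083, edgeR's quasi-likelihood test), under 1.5-fold. With them Hr was below Klf9 (0.52) and just under Thrb (0.33). Among the 6 genes Hr has the highest GC content, and its transcript is longer than the median of 3380 nt over the genes tested. Of its relatives and partners, the demethylase genes Kdm3b (0.66) and Jmjd1c (1.36) and Rora (0.63, and 0.52 without Kir2.1-OE replicate 2, not called), which encodes a nuclear receptor, were called higher, and Kdm3a (0.17) and Vdr (0.54, and 0.65 without control replicate 3, called) were not. Upper quartile scaling took Kdm3b (0.57) and Rora (0.54) under 1.5-fold, and length offsets alone turned Rora to -0.24. With the offsets Jmjd1c alone of these 5 was called, at 0.90.

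Reads of Hr outnumbered those of Klf9 in every Kir2.1-OE library and in 1 of 3 controls. The ratio of Hr to Klf9 counts was 1.37, 1.18 and 1.37 in Kir2.1-OE pools 1, 2 and 3 and 0.967, 1.06 and 0.943 in control pools 1, 2 and 3, all Kir2.1-OE ratios being above the controls (log2 difference 0.40, two-sided exact permutation test, p = 0.1, the smallest possible). Hr has the longer transcript and the higher GC content (61.6% against 47.5%), so this ratio carries the trends with both. With the length and GC offsets the order of the log2 fold changes turned, at 0.31 for Hr and 0.52 for Klf9. Per kilobase, Klf9 was above Hr in every control library, at 20.5 ± 0.598 against 16.3 ± 1.10 CPM per kb, and the ranges overlapped in Kir2.1-OE, at 32.6 ± 4.61 and 33.9 ± 4.54. The shift per kilobase between the groups carries the same trends.

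In order of CPM per kb, Dio2 and Thra led in both groups, followed by Klf9 and Hr, then Thrb, with Dio3 far behind. Dio2 had 51.9 ± 4.02 in Kir2.1-OE and 45.1 ± 12.2 CPM per kb in controls, where its range took in that of Thra, whereas in Kir2.1-OE the lowest Dio2 library (47.9) was above the highest for Thra (43.9). Dio3 had 0.0626 ± 0.0264 and 0.0439 ± 0.0343 CPM per kb, a level that overlapped between the groups. These levels divide by the longest annotated transcript, which need not be the one in use.

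The exact permutation test over the 6 libraries gave p = 0.1 for Thrb, Klf9 and Hr, 0.2 for Thra, 0.5 for Dio2 and 0.4 for Dio3, where 0.1 is the smallest value it can give. Among the patterns most like those of the called genes were those of Sox9 and Dsg2 for Thrb (root mean square differences of centred log2 CPM of 0.0193 and 0.0263), Adgra3, Xirp2 and Dusp7 for Klf9 (0.0382, 0.0388 and 0.0413) and Traf3, Zfyve26 and Rif1 for Hr (0.0203, 0.0313 and 0.0331), among 13644 genes over 6 libraries. For Thra they were Fiz1, Rad51d and Tnks2 (0.0162, 0.0176 and 0.0211). Sox9 is also a member of the cartilage and bone list, whose summed counts were higher in Kir2.1-OE.

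**Figure D3:**
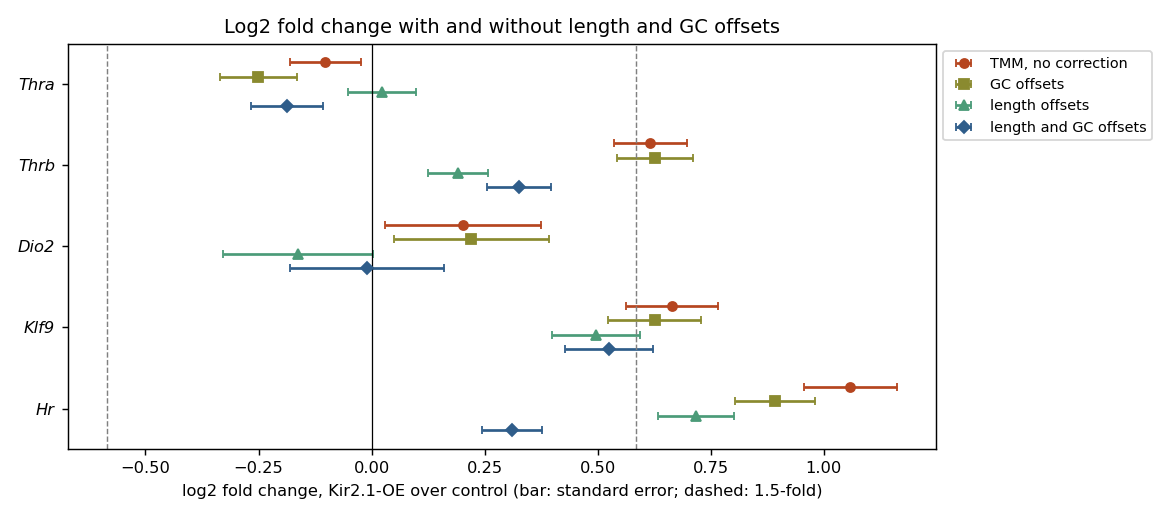
Log2 fold changes (Kir2.1-OE over control, horizontal axis; bars are standard errors, dashed lines mark 1.5-fold) of the 5 genes tested, without correction and with offsets for GC content, length or both. Thrb falls from 0.62 to 0.33 and Hr from 1.06 to 0.31 with both offsets, Klf9 moves from 0.66 to 0.52, and Thra and Dio2 stay between the dashed lines.

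The trend with transcript length was seen across the whole table. Spearman's rho between transcript length and log2 fold change was 0.557 across 15190 genes, given as a description, since all genes share the same 6 libraries. Among the 6250 genes with transcripts of 2000 to 4000 nt, the class of Thra, the median log2 fold change was -0.06 and 6.69% were called higher. In the 3603 genes of 4000 to 6000 nt, the class of Klf9, Hr and Dio2, the median was 0.21 and 19.8% were called higher. In the 1288 genes of 6000 to 8000 nt, the class of Thrb, the median was 0.54 and 44.6% were called higher. Thrb at 0.62 was near the median of its class, and Klf9 at 0.66 and Hr at 1.06 were above theirs. With the offsets these class medians were -0.02, -0.01 and 0.05.

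**Figure D4:**
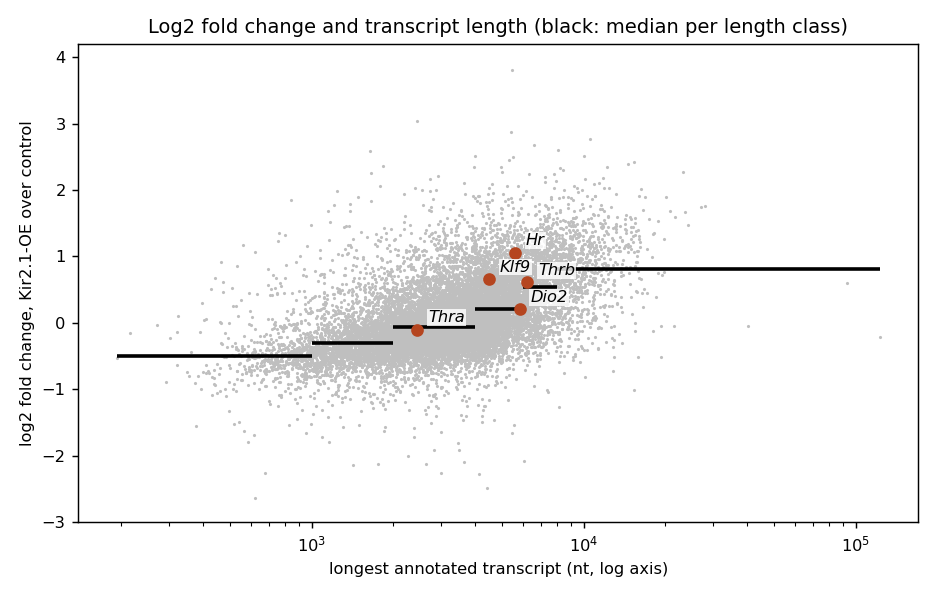
Log2 fold change (vertical axis) against the length of the longest annotated transcript (nt, log axis); grey points are the 15190 genes with a length, black bars the medians of length classes and red points the 5 thyroid hormone genes tested. The class medians climb from -0.50 under 1000 nt to 0.81 over 8000 nt, and Thrb lies near the bar of its class while Hr lies above its own.

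Beyond these 6 genes, 34 other genes of the pathway were counted and 33 were tested. Of the 33, 12 were called higher and 3 lower without offsets, beside 15.5% and 5.08% of all genes tested. With the offsets 2 were called higher and 3 lower, beside 6.81% and 3% of all genes. Their median log2 fold change was 0.38, and 0.22 with the offsets.

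Of 4 genes that carry the hormone into cells 1 was called higher, and of 3 tested that bind or handle it 2 were called lower. Over all genes tested the shares were 15.5% higher and 5.08% lower. Among the transporters, Slc7a8, an amino acid transporter that also carries thyroid hormones, was called higher, at 2002 ± 132 against 1262 ± 104 normalized counts (log2 fold change 0.66, adjusted p = 3.54e-04 in edgeR's quasi-likelihood test; 0.45 with the offsets and 0.58 with upper quartile scaling, not called). Slc16a10 (-0.03), Slco1c1 (-0.05) and Slc7a5 (0.48) were not called. Slco1c1, which encodes the T4 transporter OATP1C1, was the most counted of them, at 15966 ± 1212 and 16543 ± 2570.

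Both called genes of hormone binding were lower. Crym, whose product holds T3 in the cytosol, had 808, 977 and 1104 normalized counts in Kir2.1-OE pools 1, 2 and 3 and 1729, 1799 and 1462 in control pools 1, 2 and 3, with all Kir2.1-OE libraries under the controls. Its log2 fold change was -0.79 (SE 0.123, adjusted p = 8.39e-04 in edgeR's quasi-likelihood test), and it stayed called with the offsets at -0.65 (adjusted p = 0.00415). Ttr, the gene of the T4 carrier transthyretin, had 368, 588 and 701 in the Kir2.1-OE pools and 1657, 1447 and 794 in the control pools. The log2 fold change was -1.23 (adjusted p = 0.00549, edgeR's quasi-likelihood test) and -0.79 with the offsets, called both times, though Kir2.1-OE replicate 3 and control replicate 3 lay close together. Ttr lost its call with the replicate block added to the offsets (-0.76, adjusted p = 0.109). Both genes stayed called when any 1 library was left out, and neither was called by DESeq2 when 0.6 was the null. Secisbp2, needed to make the selenium-containing deiodinases, had 0.45 and was not called.

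The retinoid X receptors that pair with the thyroid hormone receptors were not called. Rxra had 0.17, Rxrb -0.19 and Rxrg -0.16. With the offsets Rxra had -0.33, so that its sign turned. Of 5 corepressor genes, Ncor1 (0.98), a scaffold of the corepressor complex, was called higher, and Hdac3 (-0.46, adjusted p = 0.00136 in edgeR's quasi-likelihood test but under 1.5-fold), Tbl1x (0.37), Tbl1xr1 (0.18) and Gps2 (0.15) were not. With the offsets Ncor1 had 0.32 and was not called.

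All 6 coactivator genes tested were called higher, in length classes where 44.6% (6000 to 8000 nt) and 64% (over 8000 nt) of all genes were. Their log2 fold changes were 1.02 for Ncoa1, 0.85 for Ncoa2, 1.03 for Ncoa3, 0.74 for Med1, 1.22 for Ep300 and 1.64 for Crebbp. These are long transcripts, of 7329 to 10820 nt, and with the offsets the median of the 6 went from 1.02 to 0.43 and Crebbp alone was called, at 0.77. Crebbp, which encodes the histone acetyltransferase CBP, had 1490, 1591 and 1313 normalized counts in Kir2.1-OE pools 1, 2 and 3 and 592, 447 and 366 in control pools 1, 2 and 3.

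With all 6 libraries, 0 of 5 genes that respond to T3 in other tissues were called. Thrsp, of lipid synthesis, had -0.10, Me1, the malic enzyme, 0.03, Nrgn, neurogranin, 0.32, Mbp, of myelin, 0.56 and Rcan2, a calcineurin inhibitor, 0.50. Mbp had an adjusted p of 0.00510 in edgeR's quasi-likelihood test and no overlap between the groups, and it is also a marker of glia, whose sum was higher in Kir2.1-OE. Mbp was called with replicate 2 of either group left out (0.63 for Kir2.1-OE, 0.64 for control). It was lowest, at 0.45, with another library left out, and had 0.26 with the length and GC offsets, not called. Rcan2 was called without Kir2.1-OE replicate 2 (0.69) and was lowest, at 0.13, with another library left out.

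Of 7 cochlear genes whose expression is known to depend on thyroid hormone, 4 were called higher and 1 lower, beside 15.5% and 5.08% of all genes tested. The list takes no account of the direction of that dependence, so these counts are not those of a single response. Slc26a5, the gene of the outer hair cell motor protein prestin, had 6214, 6378 and 4834 normalized counts in Kir2.1-OE pools 1, 2 and 3 and 4270, 2909 and 4160 in control pools 1, 2 and 3, a log2 fold change of 0.62 (adjusted p = 0.00818, edgeR's quasi-likelihood test), and it stayed called with the offsets at 0.75. Its call was lost without Kir2.1-OE replicate 1 (0.56), without Kir2.1-OE replicate 2 (0.52), without control replicate 2 (0.46) and with upper quartile scaling (0.53). Kcnma1 (0.80), the BK channel gene, Kcnj10 (0.79), a K+ channel gene of supporting cells and stria, and Cacna1d (0.94), the Ca2+ channel gene of IHCs, were called without the offsets and not with them (0.06, 0.44 and 0.21), and Kcnma1 turned to -0.14 with length offsets alone. Kcnn2 (0.38), another hair cell K+ channel gene, was not called. Slc26a5 and Cacna1d are also in the hair cell marker lists, so these counts are not separate from those.

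The tectorins, proteins of the tectorial membrane, had lower means in Kir2.1-OE. Tectb had 128740, 142700 and 149300 normalized counts in Kir2.1-OE pools 1, 2 and 3 and 282460, 216280 and 180810 in control pools 1, 2 and 3, a log2 fold change of -0.69 (adjusted p = 0.00405, edgeR's quasi-likelihood test) that was -0.55 with the offsets and -0.50 without control replicate 1, called in neither. Tecta had 6198, 7758 and 8110 in Kir2.1-OE and 25995, 12005 and 6264 in controls. The Tecta controls spanned the widest range, with control replicate 1 far above the rest and control replicate 3 inside the Kir2.1-OE range. Its log2 fold change of -1.004 had an adjusted p of 0.0606 in edgeR's quasi-likelihood test. Tecta was called with the offsets (-1.65), with upper quartile scaling (-1.10), without the filter on low counts and without control replicate 3 (-1.37). With single libraries left out the value ran from -1.37 to -0.31, so its size depended on 1 library.

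**Figure D5:**
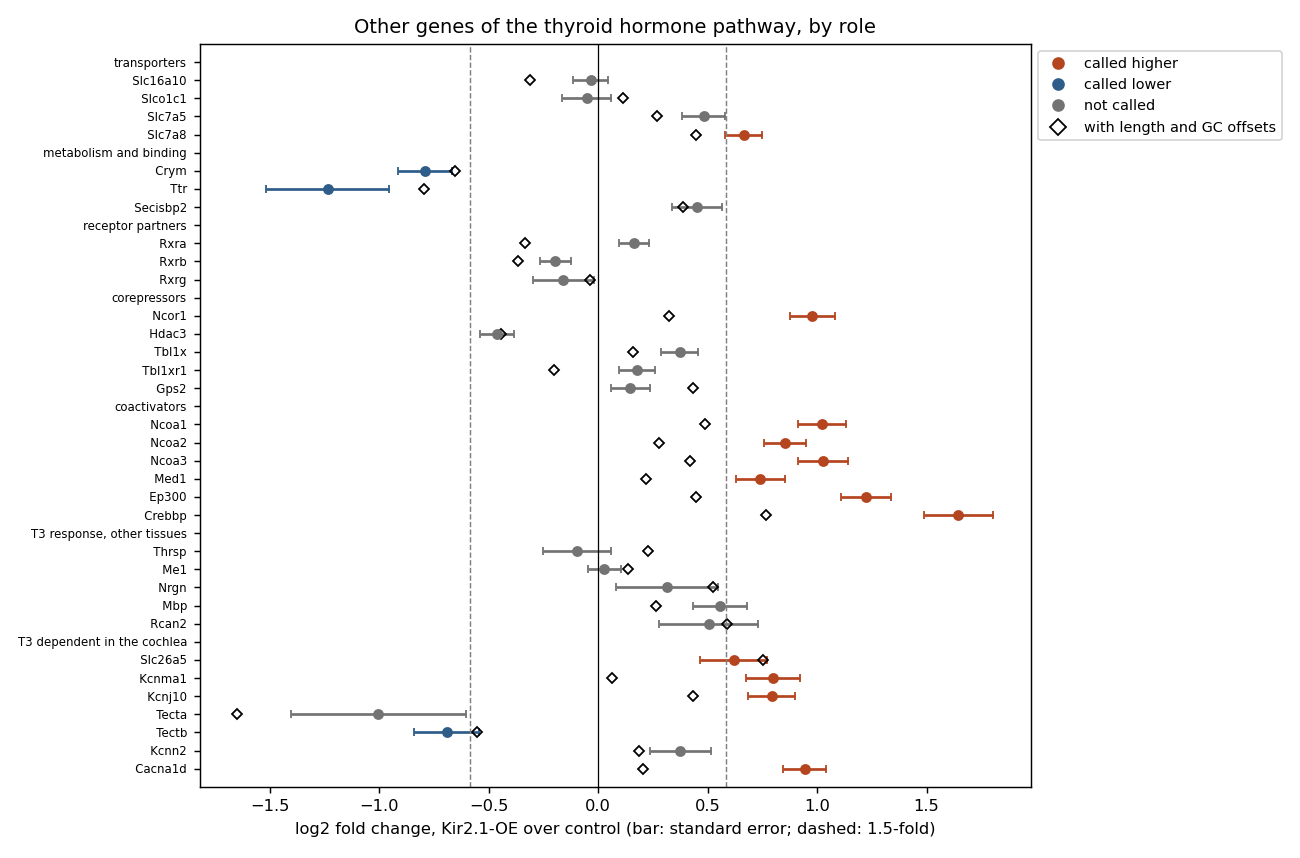
Log2 fold changes (Kir2.1-OE over control, horizontal axis; bars are standard errors, dashed lines mark 1.5-fold) of the 33 other pathway genes tested, grouped by role; filled points are without offsets, coloured by call, and open diamonds are with length and GC offsets. All 6 coactivators lie right of the upper dashed line without offsets and Crebbp alone with them, whereas Crym and Ttr lie left of the lower line in both.

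Klf9 is also a target of the glucocorticoid receptor, and genes of that response were set beside it. Of 8, Nr3c2 (0.72), the mineralocorticoid receptor gene, Per1 (0.76, and 0.57 without Kir2.1-OE replicate 2, not called) and Zbtb16 (1.25) were called higher, and none of them with the offsets (0.36, 0.24 and 0.82, the last above 1.5-fold with an adjusted p of 0.0541 in edgeR's quasi-likelihood test). The glucocorticoid receptor gene Nr3c1 (0.14) and the response genes Fkbp5 (0.07), Tsc22d3 (-0.04), Sgk1 (-0.28) and Ddit4 (-0.23) were not called. The median of the 8 was 0.10, and over all genes tested 15.5% were called higher, or 6.81% with the offsets.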

How the data were processed

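RNA from P9 cochlear sensory epithelium was sequenced in 3 Kir2.1-OE and 3 control pools. Per the study's methods, poly(A) RNA was read in pairs, mapped to mm10 with the nf-core RNA pipeline and quantified with Salmon; the versions, annotation and strand setting are not given in the sources used here. The authors deposited expected counts (estimated reads per gene, need not be whole), neither scaled nor divided by length. The header of the control replicate 1 counts carries the number 4, and its group and number were taken from its title.

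Counts were rounded, filtered with filterByExpr, scaled by TMM and compared by the quasi-likelihood test of edgeR 4.0.16 (R 4.3.3) with Benjamini-Hochberg adjustment. Calls required an adjusted p under 0.05 and a fold change above 1.5. Of the symbols, 23379 matched GENCODE vM21 (GRCm38) directly and 657 by an older symbol; 375 did not. Offsets came from a loess fit (span 0.4), per library, of the log2 ratio to the mean over libraries on log transcript length and GC content; genes without a length received none. Patterns were compared among genes averaging at least 50 normalized counts. Normalized counts use TMM library sizes, and exact permutation tests of single genes added 0.5 before the log.

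The alternatives were RLE, upper quartile and library size scaling, no filter, a minimum of 10 counts, DESeq2 1.42.0 with and without a null of 0.6, limma-voom (limma 3.58.1), unrounded counts, a replicate block, the offsets, no fold threshold and each library left out; offsets for length alone and for GC content alone were added after seeing the data. Libraries within a group differed by more than sampling noise in every pair (chi-square per degree of freedom 15.7 to 31.1). The model was tested on simulated data. The 6 genes and all lists were chosen with earlier results of these data known; members were named in full, listed genes counted and those called named. Promoter windows came from RefSeq. Some genes of the lists are not reported here.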

Additional observations from a re-analysis of the deposited data

How the results depend on the processing

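The calls of Thrb and Klf9 lie close to the 1.5-fold limit and depended on scaling and on transcript length. Of the 6 genes 3 were called; this became 1 with upper quartile factors, 1 with DESeq2 against a null of 0.6, 1 with length offsets alone and 0 with length and GC offsets, with or without the replicate block. Without single libraries 2 to 3 were called. For the other pathway genes (15 called) the counts were 5 with DESeq2 against 0.6, 5 with length and GC offsets, 3 when the replicate block was added to them and 6 with length alone; for all genes (3143) they were 613, 1501, 1162 and 1888, and 7774 with no fold threshold.

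The log2 fold change of Thrb was 0.53 with upper quartile factors, 0.61 with DESeq2 against 0.6, 0.33 with the offsets (0.33 with the block too), 0.19 with length alone and 0.54 to 0.66 without single libraries. That of Klf9 was 0.58, 0.66, 0.52 (0.52 with the block too) and 0.50 under the same settings. That of Hr was 0.31 with the offsets, with or without the block. Thra turned to 0.023 with length alone, and Dio2 to -0.0103 with the offsets, -0.16 with length alone and between -0.000304 and 0.38 without single libraries. For upper quartile factors the cause was not tested; the DESeq2 alternative asks for a fold beyond 0.6 itself. Replicate numbers did not pair the pools (correlations of same-numbered deviations -0.106, -0.232 and -0.213), and with the replicate block alone 3 of the 6 genes, 15 pathway genes and 2938 genes in all were called.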

Other observations

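Circadian genes, to which Nr1d1 opposite to Thra belongs, were also counted. Of 11 tested, Per2 (log2 fold change 1.12), Per3 (0.76) and Npas2 (1.15) were called higher and 0 lower, beside 15.5% and 5.08% of all genes tested. With the length and GC offsets Npas2 alone was called, at 0.91. Dbp (0.06), Nr1d2 (-0.11), Tef (-0.11), Arntl (-0.06) and Ciart (0.16), and Hlf (0.40) and Clock (0.48), were not called. Npas2 had 569.7, 438.7 and 362.9 normalized counts in Kir2.1-OE pools 1, 2 and 3 and 182.6, 230.8 and 205.6 in control pools 1, 2 and 3, with no overlap. The hour at which pools were taken is not given in the sources used here.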
